A study of Arabidopsis thaliana with 6 samples.

Results

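Core hypoxia and fermentation genes are the transcripts that *Arabidopsis thaliana* cells of most organs raise when oxygen runs short. The set described here holds 43 of the 24292 genes in the deposited count table, taken by locus identifier: 4 fermentation enzymes, 3 enzymes that bring sugar into glycolysis, 9 genes of oxygen sensing and transcription, 2 ethylene genes, 6 genes of signalling and redox control, 6 of metabolism and transport and 13 further genes of the core hypoxia response, most of unknown function. All 43 had enough counts to be tested. They were measured by polyA-enriched RNA-seq of dissected shoot apices from wild-type Col-0 (WT), the *val1-2* mutant (*val1*) and the *val2-1* mutant (*val2*), with 2 biological replicates per genotype. All plants were in the Col-0 background, each mutant was a single insertion line, and all were 6 weeks old and grown at 22 °C in short days (SD) of 8 h light and 16 h dark. Each sample was 0.5 g of apices, so it pooled apices, and the number of plants is not given in the sources used here. VAL1 and VAL2 are B3-domain transcriptional repressors that bind the RY motif and recruit Polycomb proteins, and the study asked what they control in the apex of plants waiting to flower.

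Plants sense oxygen through group VII ethylene response factors (ERFs). When oxygen is present, plant cysteine oxidases (PCOs) oxidise the cysteine that follows the initiator methionine of these factors, which sends them to degradation through the N-degron pathway. When oxygen is scarce the factors persist and raise a small set of genes for fermentation, sucrose breakdown and their own feedback control. The shoot apical meristem is known as a hypoxic niche in plants grown in air, so these genes are of interest in an apex that has not been flooded.

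The sequence that makes these factors oxygen sensitive can be read from the start of their coding regions. The first 30 coding bases are shown because all 5 ERFs are members. They are from RefSeq on TAIR10.1, and the capitals mark the second codon, which was TGT or TGC (cysteine) in the first 5 lines. HRE1 also has a second annotated coding start, shown in the last line, whose second codon is not a cysteine codon.
RAP2.12, chr1:20135242-20135271, plus strand: atgTGTggaggagctataatatccgatttc
RAP2.2, chr3:4738971-4739000, minus strand: atgTGTggaggagctataatctccgatttc
RAP2.3, chr3:5705784-5705813, plus strand: atgTGTggcggtgctattatttccgattat
HRE1, chr1:27241904-27241933, plus strand: atgTGCggaggagctgtaatttccgattac
HRE2, chr2:19503461-19503490, minus strand: atgTGTgggggagctatcatttctgatttc
HRE1, other start, chr1:27242142-27242171, plus strand: atgTCTcaaagctttgaactttatccatgg

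These ERFs bind the hypoxia-responsive promoter element. Its relaxed core, AAACCA followed by any 3 bases and GC, was searched on both strands in the 300 bases before the annotated start of each gene. It was found in 4 of the 43 members (9.30%) and in 264 of 27443 genes of the genome (0.962%). The matches of *ADH1*, *NIP2;1* and AT4G10270, which has it at 2 places, are shown with 12 bases on either side, in the direction of the gene and with the core in capitals.
ADH1, 166 bases upstream, chr1:28975077-28975111, plus strand: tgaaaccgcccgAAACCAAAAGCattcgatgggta
NIP2;1, 100 bases upstream, chr2:14516066-14516100, minus strand: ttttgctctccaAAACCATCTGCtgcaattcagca
AT4G10270, 230 bases upstream, chr4:6374492-6374526, plus strand: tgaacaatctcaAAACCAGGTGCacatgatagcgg
AT4G10270, 100 bases upstream, chr4:6374622-6374656, plus strand: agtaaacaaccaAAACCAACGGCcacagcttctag

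The shorter anaerobic element AAACCA, which lies inside that core, was present in the same window of 16 members (37.2%) and of 31.8% of all genes. The RY motif TGCATG was in 3 members (6.98%), namely *RAP2.2*, *HRE2* and AT4G24110, and in 10.3% of all genes. The G-box CACGTG was in 4 members (9.30%), namely *ADH1*, *PDC2*, *LBD41* and *PP2-A13*, and in 7.09% of all genes. The promoters of *ADH1* and *PDC1*, the enzymes at the end and the start of ethanol fermentation, are given whole. In both, capitals mark the AAACCA element, the core where it is complete, and the G-box. *PDC1* has AAACCA at 3 places between 66 and 44 bases upstream and no complete core.
ADH1, chr1:28974955-28975254, plus strand: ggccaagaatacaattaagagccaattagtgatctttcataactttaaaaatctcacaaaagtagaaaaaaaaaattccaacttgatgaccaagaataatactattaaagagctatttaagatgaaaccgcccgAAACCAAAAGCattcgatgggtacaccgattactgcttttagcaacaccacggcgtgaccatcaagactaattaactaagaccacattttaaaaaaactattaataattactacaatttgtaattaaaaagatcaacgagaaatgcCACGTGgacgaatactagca
PDC1, chr4:15954804-15955103, minus strand: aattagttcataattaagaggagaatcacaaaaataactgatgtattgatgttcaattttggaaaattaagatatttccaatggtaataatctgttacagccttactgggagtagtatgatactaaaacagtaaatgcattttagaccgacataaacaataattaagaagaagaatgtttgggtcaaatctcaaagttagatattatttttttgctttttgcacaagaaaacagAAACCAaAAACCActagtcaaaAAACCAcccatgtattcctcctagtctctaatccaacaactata

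The 6 libraries held between 22635808 and 33474422 gene counts, and the biological coefficient of variation was 10.7%. *VAL1* was at 40.3 and 55.4 CPM in WT (CPM are counts scaled to library size with TMM factors) and fell to 12.5 and 15.7 CPM in *val1* (log2 fold change -1.76). *VAL2* was at 39.9 and 40.9 CPM in WT but at 149.8 and 164 CPM in the *val2*-labelled libraries (log2 fold change 1.96), so the level of the gene ran against the label, and those libraries are called by their label throughout. The meristem markers *STM*, *KNAT1* and *CLV1* were present (between 38.7 and 70.7 CPM), whereas *CLV3* and *UFO* were at or below 0.284 CPM. Of the 4 meristem markers tested, *KNAT2* (0.69, adjusted p = 0.0119) and *CLV1* (0.33, adjusted p = 0.00893) were higher in *val1* on the log2 scale. The root markers measured summed to at most 1.69 CPM, and *WOX5*, a stem cell regulator of the root, was higher in *val1* (1.90, adjusted p = 0.0185), from 0.318 and 0.323 CPM in WT to 0.932 and 1.46 CPM. None of these 3 passed without the second WT replicate, and their part in the levels of the hypoxia genes was not tested. In bulk tissue, fewer cells of a type and less RNA per cell cannot be told apart.

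The first comparison asked how the members stood in *val1* relative to WT. A gene was called when edgeR's quasi-likelihood test gave a Benjamini-Hochberg adjusted p below 0.05 over all 21140 genes tested, together with a change of at least 2-fold. In *val1*, 24 of the 43 members were called lower and 0 were called higher. Of all genes tested, 9.81% were called lower and 5.89% higher. DESeq2 also gave 24 and 0, and 3 members were higher at an unadjusted p below 0.05 in edgeR, none of them by 2-fold. With the fold threshold dropped, 35 members fell (22.1% of all genes) and 3 rose (23.6% of all genes), and 5 did not pass. Of the 14 that changed by less than 2-fold, 7 (*RAP2.12*, *PCO2*, *ACO1*, *ETR2*, *HRU1*, AT1G19530 and AT4G39675) did not pass under at least 1 alternative scaling or tool, and 6 of these also failed to pass without 1 library. Scaled by library size alone, 18 members were called lower, since *ADH1*, *LDH1*, *HB1*, *ACHT5*, AT4G27450 and AT1G74940 fell short of 2-fold. The median log2 fold change was -1.13 over the members and 0.038 over all genes. In 36 members both *val1* libraries were below both WT libraries (34.3% of all genes), in 4 both were above (40% of all genes), and in 3 the libraries overlapped.

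The second comparison set the *val2*-labelled libraries against the same WT libraries, so the comparisons with WT are not independent of each other. Here 10 members were called lower, beside 2.27% of all genes, and 0 higher, beside 0.918%. DESeq2 again gave 10 and 0, and edgeR had 3 members higher at an unadjusted p below 0.05, none by 2-fold. At an adjusted p below 0.05 alone, 24 members fell (10% of all genes), 2 rose (8.69%) and 17 did not pass. The members' median was -0.33, beside 0.00016 for all genes. Both *val2*-labelled libraries were below both WT libraries in 34 members (30.8% of all genes) and above them in 3 (31.1%). The count of 10 rested on the first of these libraries, since without it 4 members were called. Of the 16 that passed by less than 2-fold, 13 no longer passed when 1 library was left out. With library size alone 8 were called, without *HRE1* and *LBD41*.

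**Figure D1:**
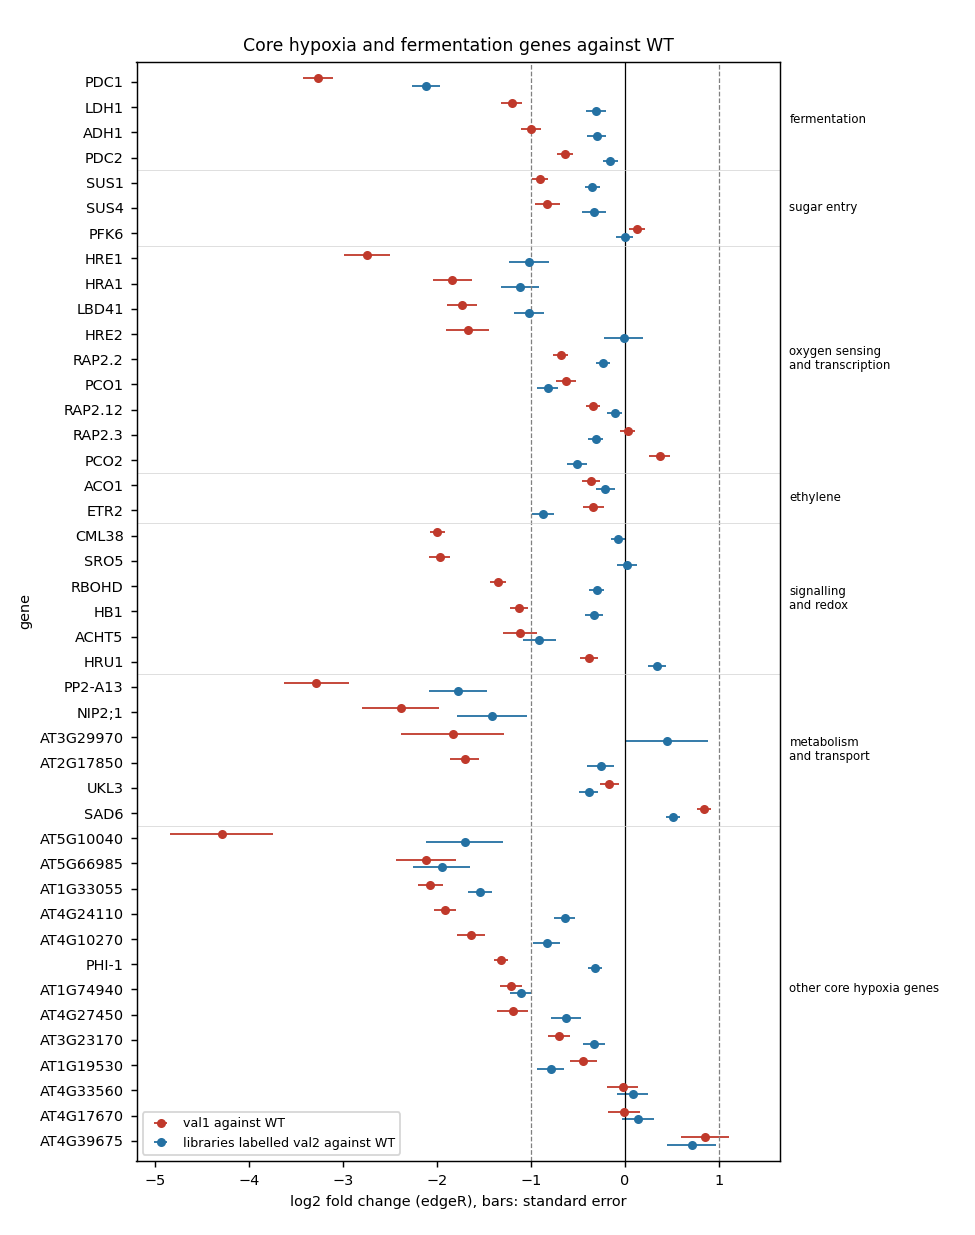
Log2 fold change against WT for each of the 43 members, grouped by role, for *val1* (red) and for the *val2*-labelled libraries (blue). Points are edgeR estimates, bars are standard errors and dashed lines mark 2-fold. In *val1* 24 members lie at or beyond the 2-fold line on the lower side, and in the *val2*-labelled libraries 10 do.

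Ethanol fermentation runs from pyruvate to acetaldehyde by pyruvate decarboxylase and on to ethanol by alcohol dehydrogenase, and lactate dehydrogenase makes lactate instead. At an adjusted p below 0.05 all 4 members fell in *val1* (22.1% of all genes). Of these, 3 fell by at least 2-fold (9.81% of all genes). Only *PDC1* passed the test in the *val2*-labelled libraries, where 10% of all genes were lower and 2.27% were called lower.

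*PDC1* (AT4G33070, chr4:15952257-15954803, minus strand, TAIR10.1 coordinates as for all genes here) codes for a pyruvate decarboxylase. It had 145 and 157 CPM in WT, 14.2 and 17.0 CPM in *val1* and 28.9 and 40.6 CPM in the *val2*-labelled libraries. All 4 mutant libraries lay far below both WT libraries, and both *val1* libraries lay below both *val2*-labelled ones. The log2 fold change was -3.27 in *val1* (SE 0.16, adjusted p = 1.65e-06), which is 9.65-fold lower, and -2.12 in the *val2*-labelled libraries (SE 0.15, adjusted p = 0.000131), which is 4.34-fold lower. *val1* was 2.22-fold below the *val2*-labelled libraries in the direct test (log2 fold change -1.15, adjusted p = 0.000539), and -3.27 was the largest fall among the fermentation members. *PDC1* lies 471.2 kb from *VAL2*. The 226 genes tested within 500 kb of *VAL2*, *PDC1* among them, had a median log2 fold change of 0.024 in the *val2*-labelled libraries. Of these, 3 were called higher (0.918% of all genes) and 3 lower (2.27% of all genes), *PDC1* included. From 500 to 1000 kb the median of 233 genes was -0.018, with 3 called higher and 9 lower. At an adjusted p below 0.05 alone, 25 rose and 18 fell in the nearer window, and 19 rose and 49 fell in the farther one. At that threshold 8.69% of all genes rose and 10% fell. The part of position in the fall of *PDC1* was not tested.

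*PDC2* (AT5G54960), the other pyruvate decarboxylase of the set, had 43.9 and 42.3 CPM in WT, 29.1 and 26.3 CPM in *val1* and 37.9 and 39.4 CPM in the *val2*-labelled libraries. Both *val1* libraries were below the other 4. The fall in *val1* was small (log2 fold change -0.64, SE 0.08, adjusted p = 0.000292), and the *val2*-labelled libraries did not pass (-0.16, adjusted p = 0.216). Per transcript length, *PDC1* was at 105 TPM and *PDC2* at 29.2 TPM in WT, whereas in *val1* the levels were 12.3 and 21.2 TPM, so the order of this pair of enzymes was turned round.

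*ADH1* (AT1G77120, chr1:28975255-28977417, plus strand), the alcohol dehydrogenase, had 99.0 and 119.6 CPM in WT, 52.3 and 57.0 CPM in *val1* and 85.8 and 92.1 CPM in the *val2*-labelled libraries. Both *val1* libraries lay below the other 4. Its log2 fold change in *val1* was -1.0 (SE 0.10, adjusted p = 6.72e-05), at the 2-fold line itself, and it moved to -0.86 without the second WT replicate and to -0.94 without the first *val1* replicate. In the *val2*-labelled libraries the value was -0.30 and did not pass (adjusted p = 0.071). *LDH1* (AT4G17260), the lactate dehydrogenase, had 65.2 and 77.5 CPM in WT, 28.6 and 33.3 CPM in *val1* and 54.6 and 60.7 CPM in the *val2*-labelled libraries. It fell 2.3-fold in *val1* (log2 fold change -1.20, SE 0.11, adjusted p = 3.89e-05), while the value of -0.31 in the *val2*-labelled libraries did not pass (adjusted p = 0.0819).

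Sucrose synthase splits sucrose without spending ATP and supplies hexose to glycolysis in low oxygen. *SUS1* (AT5G20830) had 57.8 and 56.2 CPM in WT, 28.7 and 32.1 CPM in *val1* and 45.2 and 44.3 CPM in the *val2*-labelled libraries. *SUS4* (AT3G43190) had 40.8 and 31.6 CPM in WT, 20.3 and 20.5 CPM in *val1* and 30.8 and 26.8 CPM in the *val2*-labelled libraries. Both fell in *val1* by less than 2-fold, with log2 fold changes of -0.90 (SE 0.08, adjusted p = 3.09e-05) and -0.83 (SE 0.13, adjusted p = 0.000877). *SUS1* also fell in the *val2*-labelled libraries (-0.35, adjusted p = 0.0174, and up to 0.0915 with 1 library left out), whereas *SUS4* did not pass (-0.33, adjusted p = 0.109). The phosphofructokinase gene *PFK6* (AT4G32840) had 26.4 and 27.1 CPM in WT, 28.4 and 30.1 CPM in *val1* and 27.5 and 25.8 CPM in the *val2*-labelled libraries. It passed in neither mutant, with log2 fold changes of 0.13 and -0.0051.

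**Figure D2:**
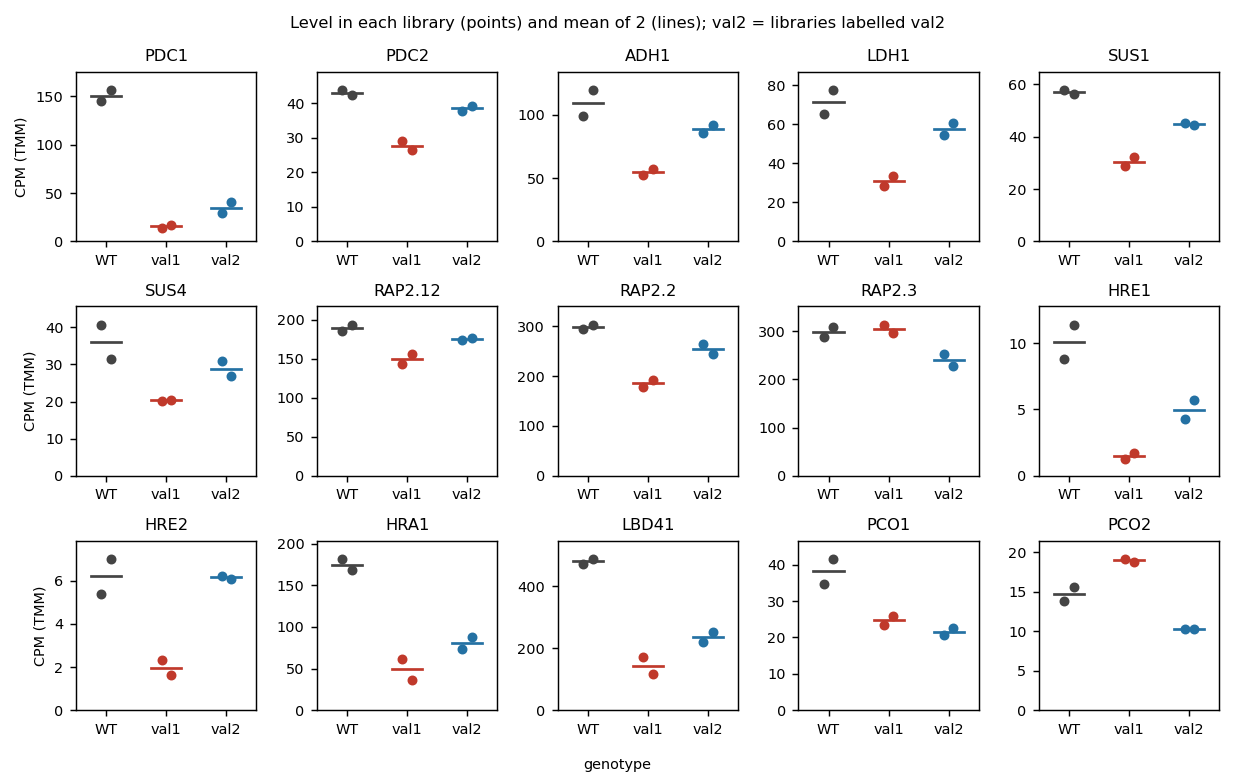
Level of 15 members of the fermentation, sugar and oxygen-sensing groups in each of the 6 libraries (points; CPM, linear axes from 0) with the mean of the 2 replicates (lines). The *PDC1* points of both mutants lie below 41 CPM, against 145 and 157 CPM in WT, while *PCO2* lies above WT in *val1* and below it in the *val2*-labelled libraries.

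Of the 9 oxygen-sensing members, the 4 called lower in *val1* (9.81% of all genes) were *HRE1*, *HRE2*, *HRA1* and *LBD41*. All 4 are known to be induced by hypoxia. The other 5 were the 3 constitutive ERFs together with *PCO1* and *PCO2*, which hypoxia also induces. These changed by less than 2-fold or did not pass. *RAP2.12* and *RAP2.2*, whose proteins are the main activators of the response, were at 162 and 262 TPM in WT. *RAP2.12* (AT1G53910) had 185 and 194 CPM in WT, 144 and 156 CPM in *val1* and 174 and 176 CPM in the *val2*-labelled libraries, and *RAP2.2* (AT3G14230) had 294 and 304 CPM in WT, 179 and 193 CPM in *val1* and 265 and 244 CPM in the *val2*-labelled libraries. Both fell in *val1*, with log2 fold changes of -0.34 for *RAP2.12* (adjusted p = 0.00566) and -0.68 for *RAP2.2* (adjusted p = 0.000128), and neither passed in the *val2*-labelled libraries (-0.11 and -0.23). The change of *RAP2.12* was -0.13 with library size alone (adjusted p = 0.168) and -0.15 on log2(TPM + 1) (adjusted p = 0.0829), and passed in neither. Of the exon sequence of *RAP2.12*, 22.3% of the 50-base words occur elsewhere in the genome, so its counts are less certain. *RAP2.3* (AT3G16770), the other constitutive factor, had 288 and 309 CPM in WT, 314 and 296 CPM in *val1* and 253 and 228 CPM in the *val2*-labelled libraries. Its *val1* libraries overlapped WT (log2 fold change 0.03, adjusted p = 0.794), and it fell slightly in the *val2*-labelled libraries (-0.31, adjusted p = 0.0304), a change that did not pass without any 1 of the WT or *val2*-labelled libraries.

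*HRE1* and *HRE2* code for the ERFs whose own transcripts are raised by hypoxia. *HRE1* (AT1G72360, chr1:27241696-27242968, plus strand) was measured at 8.78 and 11.4 CPM in WT, 1.26 and 1.72 CPM in *val1* and 4.28 and 5.68 CPM in the *val2*-labelled libraries. The genotypes did not overlap and stood in the order WT, *val2*-labelled libraries, *val1*. It fell 6.72-fold in *val1* (log2 fold change -2.75, SE 0.24, adjusted p = 3e-05) and 2.03-fold in the *val2*-labelled libraries (-1.02, SE 0.21, adjusted p = 0.0126). This second call was lost without the second WT replicate and without the first *val2*-labelled library, both at -0.82. *HRE1* overlaps AT1G72370 on the opposite strand, which was at 557 CPM in WT and rose by 0.25 on the log2 scale in *val1* (adjusted p = 0.0138); the kit keeps strand, but the strand setting of the counting is not given in the sources used here.

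*HRE2* (AT2G47520) had 5.4 and 7.01 CPM in WT, 2.31 and 1.62 CPM in *val1* and 6.24 and 6.09 CPM in the *val2*-labelled libraries. The *val1* libraries were the lowest, and the *val2*-labelled libraries lay inside the WT range. Its log2 fold change was -1.67 in *val1* (SE 0.23, adjusted p = 0.000378) and -0.013 in the *val2*-labelled libraries (adjusted p = 0.977), and the direct test between the mutants gave -1.66 (adjusted p = 0.000539). In the second comparison *HRE1* was called and *HRE2* was not, and the difference between these genes was not tested.

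*HRA1* and *LBD41* code for transcription factors that hypoxia induces, and HRA1, a trihelix protein, restrains RAP2.12. *HRA1* (AT3G10040) had 182 and 168 CPM in WT, 61.6 and 36.7 CPM in *val1* and 73.3 and 88.0 CPM in the *val2*-labelled libraries. *LBD41* (AT3G02550, chr3:536500-538126, minus strand) had 472 and 488 CPM in WT, 172 and 116 CPM in *val1* and 221 and 251 CPM in the *val2*-labelled libraries. In both genes all mutant libraries lay below WT, and the second *val1* replicate was well below the first. *HRA1* fell 3.57-fold in *val1* (log2 fold change -1.84, SE 0.20, adjusted p = 0.000112) and 2.17-fold in the *val2*-labelled libraries (-1.12, adjusted p = 0.00657). *LBD41* fell 3.34-fold (-1.74, SE 0.16, adjusted p = 3.77e-05) and 2.03-fold (-1.02, adjusted p = 0.00379). Both *val2*-labelled calls sat close to the 2-fold line and were lost without the first of those libraries (-0.99 and -0.93), and that of *LBD41* also without the second WT replicate. With 489 TPM in WT, *LBD41* was the most abundant of the transcription factor members that have a TPM value.

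The cysteine oxidases that mark the ERFs for degradation had log2 fold changes of opposite sign in *val1*. *PCO1* (AT5G15120) had 34.7 and 41.6 CPM in WT, 23.5 and 25.8 CPM in *val1* and 20.5 and 22.7 CPM in the *val2*-labelled libraries. It fell in both mutants by less than 2-fold (-0.63, adjusted p = 0.00169, and -0.82, adjusted p = 0.00222), and the direct test did not separate them (0.19, adjusted p = 0.218). *PCO2* (AT5G39890) had 13.9 and 15.5 CPM in WT, 19.2 and 18.8 CPM in *val1* and 10.3 and 10.3 CPM in the *val2*-labelled libraries. It rose in *val1* (log2 fold change 0.37, SE 0.11, adjusted p = 0.0223) and fell in the *val2*-labelled libraries (-0.51, SE 0.11, adjusted p = 0.0145). The rise did not pass with DESeq2 (0.34, adjusted p = 0.0863) or without the first WT replicate or either *val1* replicate (adjusted p up to 0.126), and the fall did not pass without the second WT replicate or either *val2*-labelled library (adjusted p up to 0.0855). The difference between the mutants was 0.88 on the log2 scale (adjusted p = 0.000337), and no library of one mutant reached the other.

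**Figure D3:**
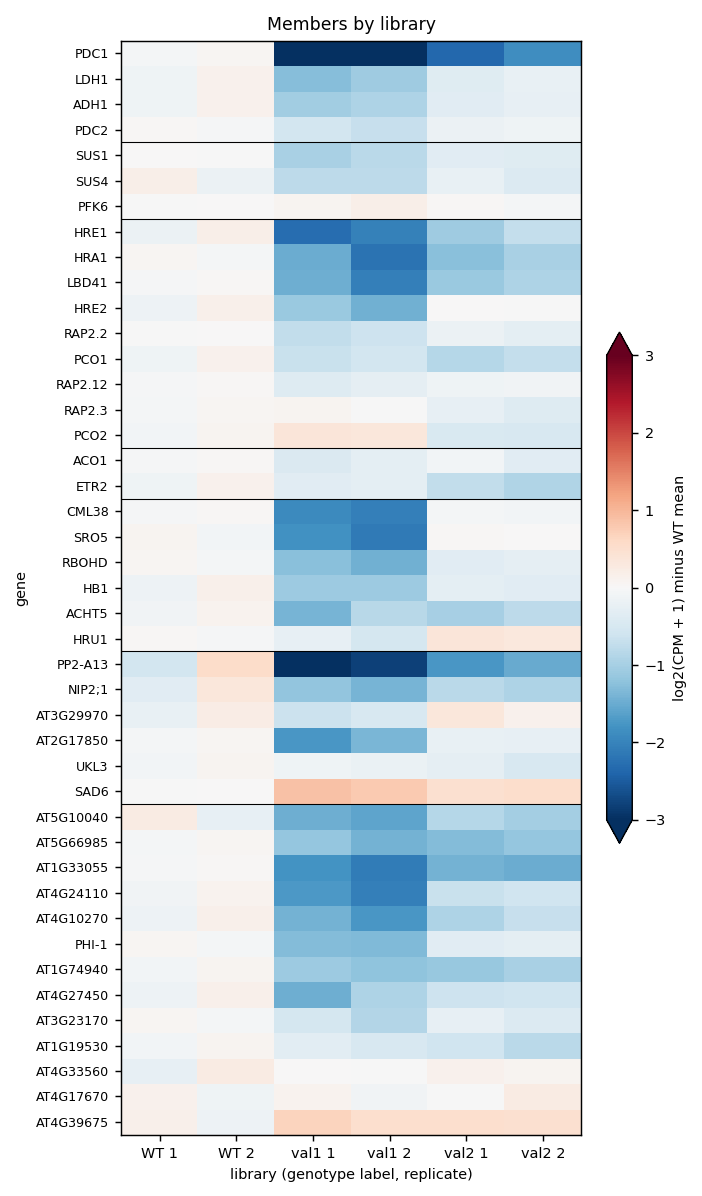
Each row is 1 of the 43 members, grouped by role, and each column a library. Colour gives log2(CPM + 1) minus the mean of the WT libraries (blue lower, red higher; the scale ends at 3 in either direction). Both *val1* columns are blue in most rows, the *val2*-labelled columns are paler, and *SAD6* and AT4G39675 are red in all 4 mutant libraries.

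Ethylene and oxygen signalling meet at *ACO1*, an ACC oxidase that makes ethylene, and *ETR2*, an ethylene receptor. *ACO1* (AT2G19590) had 94.9 and 99.1 CPM in WT, 71.5 and 79.5 CPM in *val1* and 91.4 and 76.5 CPM in the *val2*-labelled libraries. *ETR2* (AT3G23150) had 26.4 and 31.5 CPM in WT, 22.6 and 23.3 CPM in *val1* and 16.8 and 14.9 CPM in the *val2*-labelled libraries. Both changed by less than 2-fold. *ACO1* fell in *val1* (-0.36, adjusted p = 0.0159) and did not pass in the *val2*-labelled libraries (-0.21, adjusted p = 0.178). *ETR2* fell more in the *val2*-labelled libraries (-0.87, adjusted p = 0.00199) than in *val1* (-0.34, adjusted p = 0.0377), and the direct test gave 0.53 (adjusted p = 0.0067), which did not pass without the second *val2*-labelled library (0.45, adjusted p = 0.0609). Neither *val1* change passed with library size alone (-0.15 for *ACO1*, adjusted p = 0.226, and -0.12 for *ETR2*, adjusted p = 0.371) or without the second WT replicate or the first *val1* replicate (adjusted p up to 0.0907 and 0.249), and *ETR2* came to -0.20 without the second WT replicate.

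Among the 6 signalling and redox genes, 5 were called lower in *val1* (9.81% of all genes) and 0 in the *val2*-labelled libraries (2.27% of all genes). There DESeq2 also called 0 and edgeR had 3 lower and 1 higher at an unadjusted p below 0.05. *CML38* (AT1G76650), a calmodulin-like protein found in stress granules of oxygen-starved cells, had 455 and 474 CPM in WT, 122 and 111 CPM in *val1* and 446 and 436 CPM in the *val2*-labelled libraries. It fell 3.99-fold in *val1* (log2 fold change -2.0, SE 0.08, adjusted p = 8.82e-07), and the *val2*-labelled libraries lay just under WT (-0.077, adjusted p = 0.521). *SRO5* (AT5G62520), a relative of the stress regulator RCD1, had 371 and 329.7 CPM in WT, 99.2 and 79.3 CPM in *val1* and 358 and 354 CPM in the *val2*-labelled libraries. Here the *val2*-labelled libraries lay inside the WT range (0.022, adjusted p = 0.915), while *val1* was 3.93-fold lower (-1.97, SE 0.11, adjusted p = 2.8e-06). *SRO5* overlaps AT5G62530 on the other strand, which was at 83.2 CPM in WT and had a log2 fold change of 0.27 in *val1*.

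*RBOHD* (AT5G47910), the NADPH oxidase that makes reactive oxygen outside the cell, had 1485 and 1357 CPM in WT, 595 and 518 CPM in *val1* and 1124 and 1180.4 CPM in the *val2*-labelled libraries. It was 2.55-fold lower in *val1* (-1.35, SE 0.08, adjusted p = 4.23e-06) and slightly lower in the *val2*-labelled libraries (-0.30, adjusted p = 0.036). *HB1* (AT2G16060), the phytoglobin that removes nitric oxide, had 71.1 and 86.9 CPM in WT, 36.1 and 36.3 CPM in *val1* and 63.7 and 62.1 CPM in the *val2*-labelled libraries. Its log2 fold changes were -1.13 (adjusted p = 2.69e-05) and -0.33 (adjusted p = 0.044), and the first came to -0.97 without the second WT replicate. *ACHT5* (AT5G61440), an atypical thioredoxin of the chloroplast, had 37.8 and 44.2 CPM in WT, 15 and 22.6 CPM in *val1* and 20.1 and 23.5 CPM in the *val2*-labelled libraries. It fell in both, with log2 fold changes of -1.12 (adjusted p = 0.000889) and -0.91 (adjusted p = 0.00867), the first of these at -0.86 without its first replicate. The remaining gene, *HRU1*, which codes for a universal stress protein, moved in opposite directions: it fell in *val1* (-0.38, adjusted p = 0.0103), rose in the *val2*-labelled libraries (0.34, adjusted p = 0.0376), and differed between the mutants by -0.72 (adjusted p = 0.000453). Only the difference between the mutants passed with every library left out in turn (adjusted p up to 0.00526). The fall did not pass without the first WT or the second *val1* replicate (adjusted p up to 0.0606) or with library size alone (-0.17, adjusted p = 0.18), and the rise did not pass without any 1 of the WT or *val2*-labelled libraries (adjusted p up to 0.185). The *val2*-labelled changes of *RBOHD* and *HB1* did not pass without the second WT replicate or either *val2*-labelled library.

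Some of these genes, *CML38* among them, are also known to respond to wounding, and a list of 12 touch and wound response genes moved with them. In *val1* 8 of the 12 were called lower, beside 9.81% of all genes, and 1, *ERF5*, higher (1.47), beside 5.89%. The called genes that fell were the calmodulin-like *TCH3* (-2.37) and *CML37* (-1.30), the cell wall enzyme gene *TCH4* (-1.14), the transcription factor genes *WRKY40* (-1.10), *WRKY33* (-1.26) and *ZAT10* (-1.43), and the jasmonate repressor genes *JAZ1* (-1.60) and *JAZ5* (-1.11). In the *val2*-labelled libraries 0 of the 12 were called by edgeR or DESeq2, with 2 higher and 3 lower at an unadjusted p below 0.05. There 2.27% of all genes were called lower and 0.918% higher. The list summed to between 8880.2 and 9197 CPM in WT, 3737 and 3789 CPM in *val1*, and 7574 and 7883 CPM in the *val2*-labelled libraries. Its part in the values of the members was not tested.

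Of the 6 metabolism and transport members, 4 were called lower in *val1* (9.81% of all genes) and 2 in the *val2*-labelled libraries (2.27% of all genes). *PP2-A13* (AT3G61060), a phloem protein 2-like F-box protein, had 38.4 and 84.4 CPM in WT, 5.23 and 7.30 CPM in *val1* and 16.4 and 19.5 CPM in the *val2*-labelled libraries. The WT replicates differed widely from each other, yet both lay above all 4 mutant libraries. Its log2 fold change was -3.28 in *val1* (SE 0.35, adjusted p = 8.16e-05) and -1.78 in the *val2*-labelled libraries (SE 0.31, adjusted p = 0.00623). Without the second WT replicate these were -2.61 and -1.10, and the second call was lost without the first *val2*-labelled library (-1.65, adjusted p = 0.0657). The phloem markers *SUC2*, *PP2-A1*, *SEOR1* and *APL* summed to between 174 and 175 CPM in WT, 138 and 160.4 CPM in *val1*, and 154 and 172 CPM in the *val2*-labelled libraries. Of these 4, 2 were lower in *val1* and 0 in the *val2*-labelled libraries at an adjusted p below 0.05 (0 also at an unadjusted p below 0.05 and 0 called by DESeq2), and their part in this fall was not tested. Of all genes, 22.1% were lower in *val1* and 10% in the *val2*-labelled libraries at that adjusted p.

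*NIP2;1* (AT2G34390) codes for an aquaporin-like channel for lactic acid, and had 2.07 and 3.85 CPM in WT, 0.689 and 0.454 CPM in *val1* and 1.20 and 1.02 CPM in the *val2*-labelled libraries. These values rest on few reads, and 7.88% of its 50-base exon words occur elsewhere in the genome. It fell in *val1* (-2.39, SE 0.41, adjusted p = 0.00138), and its call in the *val2*-labelled libraries (-1.42, SE 0.37, adjusted p = 0.0299) was lost without the second WT replicate and without either *val2*-labelled library. AT2G17850, a rhodanese-like protein, had 16.4 and 17.8 CPM in WT, 4.38 and 6.04 CPM in *val1* and 14.4 and 14.2 CPM in the *val2*-labelled libraries. It was called lower in *val1* against WT and against the *val2*-labelled libraries (-1.71, adjusted p = 3.38e-05, and -1.45, adjusted p = 0.000133). AT3G29970, a B12D-related protein, had 0.556 and 1.10 CPM in WT, 0.162 and 0.292 CPM in *val1* and 1.29 and 0.987 CPM in the *val2*-labelled libraries. With 13 counts in *val1* and 48 in WT, the ratio of WT to *val1* was 3.65 (exact 95% interval 1.95 to 7.35, counting error only). Its fitted *val1* call (-1.83, SE 0.55, adjusted p = 0.0229) was lost without the second WT replicate (-1.25) and without the first *val1* replicate (-1.51).

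*SAD6* (AT1G43800), an acyl carrier protein desaturase that RefSeq names *FTM1*, rose in both mutants. It had 72.4 and 74.3 CPM in WT, 137 and 126 CPM in *val1* and 103 and 107 CPM in the *val2*-labelled libraries. All 4 mutant libraries lay above WT, *val1* highest. The log2 fold change was 0.84 in *val1* (SE 0.07, adjusted p = 2.99e-05), 0.52 in the *val2*-labelled libraries (adjusted p = 0.0029) and 0.33 between the mutants (adjusted p = 0.00828). Among the 39 members with TPM values it ranked 16 in WT, at 76.1 TPM, and 6 in *val1*, at 154 TPM. It passed 2-fold in *val1* when only library size was used for scaling (1.06) and on log2(TPM + 1) (1.01). *UKL3*, a uridine kinase-like gene, did not pass in *val1* (-0.17) and fell slightly in the *val2*-labelled libraries (-0.39, adjusted p = 0.0295). That fall did not pass with library size alone (-0.31, adjusted p = 0.0585) and came to -0.28 without the second *val2*-labelled library.

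The 13 further genes of the core response mostly code for short proteins of unknown function. Of these 13, 8 were called lower in *val1* (9.81% of all genes), among the 24 calls there. In the *val2*-labelled libraries 4 were called lower (2.27% of all genes), among the 10 calls there. AT5G10040 (chr5:3143723-3144157, plus strand) was measured at 2.78 and 1.68 CPM in WT, 0.162 and 0.0649 CPM in *val1* and 0.769 and 0.579 CPM in the *val2*-labelled libraries, from 4 and 2 counts in the *val1* libraries. The summed counts, 6 in *val1* and 122 in WT, put WT 20.1-fold higher with an exact 95% interval from 8.98 to 55.9, which covers counting error only. The fitted log2 fold changes were -4.29 in *val1* (SE 0.55, adjusted p = 0.000259) and -1.71 in the *val2*-labelled libraries (adjusted p = 0.0217); the second was lost without the first WT replicate and without either *val2*-labelled library, and leaving out the *val1* libraries one at a time gave -5.01 and -3.74 for the first.

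AT5G66985 had 3.18 and 3.49 CPM in WT, 0.932 and 0.617 CPM in *val1* and 0.769 and 0.953 CPM in the *val2*-labelled libraries. AT1G33055 had 30.5 and 32.1 CPM in WT, 8.39 and 6.55 CPM in *val1* and 11.0 and 10.5 CPM in the *val2*-labelled libraries. AT1G74940, a zinc finger protein of the FCS-like family, had 27.8 and 31.2 CPM in WT, 13.3 and 12.1 CPM in *val1* and 12.9 and 14.5 CPM in the *val2*-labelled libraries. In these genes the 4 mutant libraries stood together below WT. Their log2 fold changes in *val1* were -2.12, -2.07 and -1.21, and in the *val2*-labelled libraries -1.95, -1.54 and -1.10 (adjusted p between 0.000266 and 0.00409). The direct test did not separate the mutants for AT5G66985 (-0.17, SE 0.34) or AT1G74940 (-0.11, SE 0.12), and did for AT1G33055 (-0.53, adjusted p = 0.0149). This difference of AT1G33055 did not pass without the second *val1* replicate (-0.36) or without either *val2*-labelled library (-0.50 and -0.57). AT1G33055 overlaps AT1G33050 on the same strand, which had a log2 fold change of -0.47 in *val1* and -0.32 in the *val2*-labelled libraries.

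AT4G24110 had 93.5 and 107 CPM in WT, 29.7 and 23.4 CPM in *val1* and 62.4 and 66.0 CPM in the *val2*-labelled libraries. AT4G10270, a member of the wound-responsive family, had 51.9 and 64.0 CPM in WT, 21.0 and 16.4 CPM in *val1* and 29.9 and 35.2 CPM in the *val2*-labelled libraries. AT4G27450 had 106 and 129.8 CPM in WT, 41.7 and 61.2 CPM in *val1* and 75.9 and 77.1 CPM in the *val2*-labelled libraries. These genes were graded, with *val1* lowest and the *val2*-labelled libraries between. In *val1* the log2 fold changes were -1.92 (adjusted p = 4.03e-06), -1.64 (adjusted p = 3.31e-05) and -1.20 (adjusted p = 0.000396), the last at -0.95 without the first *val1* replicate. In the *val2*-labelled libraries they were -0.64, -0.83 and -0.63, all past the adjusted threshold and short of 2-fold. None of these passed without the first *val2*-labelled library (-0.60, -0.71 and -0.61). Between the mutants the difference of AT4G27450 (-0.57, adjusted p = 0.0242) did not pass with library size alone (-0.43, adjusted p = 0.0505). *PHI-1*, an EXORDIUM-like gene, had 552 and 509 CPM in WT, 214 and 211 CPM in *val1* and 419 and 433 CPM in the *val2*-labelled libraries. It fell 2.5-fold in *val1* (-1.32, SE 0.07, adjusted p = 2.35e-06) and less in the *val2*-labelled libraries (-0.32, adjusted p = 0.017). The smaller fall did not pass with library size alone (-0.24, adjusted p = 0.0514) and came to -0.26 without the first WT replicate.

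Of the other 5, AT3G23170 (-0.70) and AT1G19530 (-0.44) fell in *val1* by less than 2-fold, and AT4G39675 rose (0.85, adjusted p = 0.0247, but 0.0818 with DESeq2), from 1.95 and 1.39 CPM in WT to 3.20 and 2.79 CPM in *val1*. The fall of AT1G19530 in *val1* did not pass with DESeq2 (adjusted p = 0.075) or with library size alone (-0.23). AT1G19530 also fell in the *val2*-labelled libraries (-0.79, adjusted p = 0.00787, and -0.68 without the second of them). AT3G23170 (-0.33) and AT4G39675 (0.71) did not pass there. AT4G33560, the second wound-responsive family gene, had log2 fold changes of -0.026 and 0.084. AT4G17670, the second FCS-like zinc finger gene, had -0.0057 and 0.14. Neither of these passed in either mutant, so within both families 1 of 2 members was called in *val1*. Besides the overlaps given above, *ADH1*, *PFK6*, *NIP2;1*, *PP2-A13*, AT4G10270, AT5G10040 and AT4G27450 overlap a counted gene on the opposite strand, and the log2 fold changes of those neighbours in *val1* lay between -0.66 and 0.73.

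The third comparison tested *val1* directly against the *val2*-labelled libraries, without WT. Here 12 members were called lower in *val1*, beside 6.94% of all genes, and 0 higher, beside 5.17%, with DESeq2 giving 12 and 0 and edgeR 5 higher at an unadjusted p below 0.05. At an adjusted p below 0.05 alone, 27 were lower (18% of all genes) and 4 higher (17.7%). Of the 19 of these under 2-fold, 10 did not pass when 1 library was left out, among them *ETR2*, *RAP2.3* and *SAD6*. The members' median was -0.56, beside 0.012 for all genes. The largest separations were those of AT5G10040 (-2.59), AT3G29970 (-2.28), *SRO5* (-2.0) and *CML38* (-1.92), and the others called were *HRE1* (-1.72), *HRE2* (-1.66), *PP2-A13* (-1.51), AT2G17850 (-1.45), AT4G24110 (-1.28), *PDC1* (-1.15), *RBOHD* (-1.05) and *PHI-1* (-1.0). The 4 higher members were *PCO2* (0.88), *ETR2* (0.53), *RAP2.3* (0.34) and *SAD6* (0.33). The calls of *PDC1* (-0.89), *PHI-1* and *PP2-A13* were lost without the second *val2*-labelled library, those of AT3G29970 and AT5G10040 without the first, those of *RBOHD*, *PHI-1* and AT5G10040 without the second *val1* replicate, and those of *PP2-A13* and AT3G29970 without the first.

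**Figure D4:**
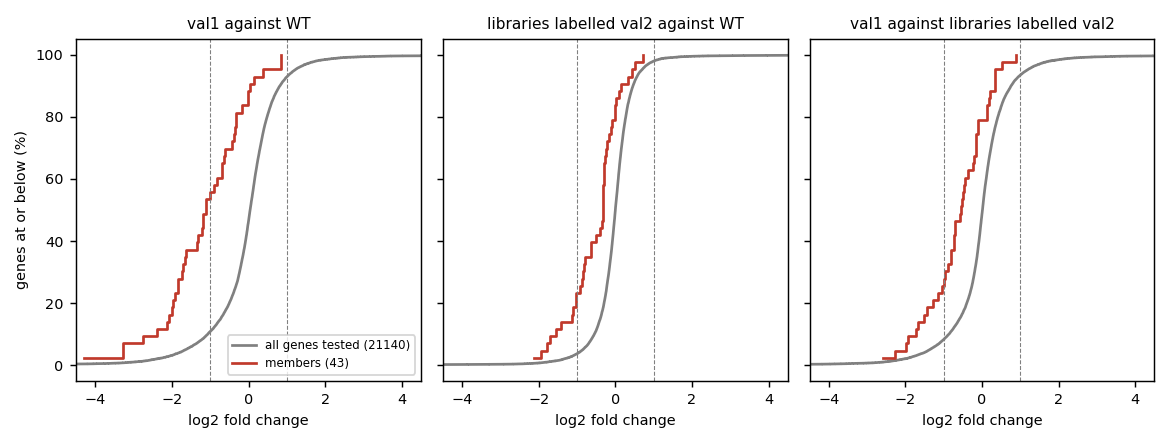
Share of genes (percent, vertical axis) at or below each log2 fold change (horizontal axis) for the 43 members (red) and all 21140 genes tested (grey) in the 3 comparisons; dashed lines mark 2-fold. The red curve lies to the left of the grey curve over most of each panel, with medians of -1.13, -0.33 and -0.56 against 0.038, 0.00016 and 0.012.

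Summed over all 43 members, the level was 5787 and 5810.4 CPM in WT, 2778 and 2591 CPM in *val1*, and 4473 and 4535 CPM in the *val2*-labelled libraries. The fermentation members summed to 353 and 396 CPM, 124 and 134 CPM, and 207 and 233 CPM in the same order. In no group but metabolism and transport, where *SAD6* rose, did a *val1* library overlap WT in its sum. Such sums weigh genes by their counts, and *RBOHD* alone held 1485 and 1357 CPM of the WT sums over all members. Per transcript length, *CML38*, *PHI-1* and *RBOHD* were the 3 most abundant members in WT (745, 655 and 609.9 TPM), and *PDC1* moved from rank 15 in WT to rank 30 in *val1* and 21 in the *val2*-labelled libraries.

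A separate list of 13 N-degron genes held enzymes that act on the ERF proteins, and other genes such as *VRN2*, *ZPR2*, *ACBP1* and *ACBP2*. None of the 13 was called by edgeR or DESeq2 in any comparison. Of all genes, 9.81% were called lower and 5.89% higher in *val1*, and 2.27% and 0.918% in the *val2*-labelled libraries. Between the mutants the shares were 6.94% and 5.17%. At an adjusted p below 0.05 alone, 4 rose (23.6% of all genes) and 3 fell (22.1%) in *val1*. In the *val2*-labelled libraries 1 rose (8.69%) and 1 fell (10%), and between the mutants 3 were higher (17.7%) and 1 lower (18%). At an unadjusted p below 0.05 edgeR had 6 higher and 3 lower in *val1*, and 3 higher and 2 lower in the *val2*-labelled libraries. Between the mutants it had 4 higher and 1 lower. *PRT6*, the ubiquitin ligase at the end of the pathway, was at 102 and 99.4 CPM in WT and 76.0 and 91.4 CPM in *val1* (log2 fold change -0.27, adjusted p = 0.0428). The arginyl transferase genes *ATE1* and *ATE2* had log2 fold changes in *val1* of -0.0092 (adjusted p = 0.949) and 0.38 (adjusted p = 0.0457). The oxidase genes that hypoxia does not induce, *PCO3*, *PCO4* and *PCO5*, had 0.34 (adjusted p = 0.0648), 0.036 (adjusted p = 0.873) and -0.40 (adjusted p = 0.0117). In the *val2*-labelled libraries none of these 6 genes passed, with log2 fold changes between -0.29 and 0.31. In the rest of the list *MAP1A* rose there (0.31, adjusted p = 0.0354) and *ACBP2* fell (-0.39, adjusted p = 0.0453). In *val1* the rest of the list had *MAP1A* (0.23), *ACBP1* (0.31) and *ACBP2* (0.36) higher and *BIG* (-0.28) lower, with adjusted p between 0.0286 and 0.0488.

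Related genes of glycolysis and fermentation outside the set made a list of 26, of which 25 were tested. In *val1* 3 were called lower, 12% of those tested beside 9.81% of all genes, and 0 higher, beside 5.89%. At an unadjusted p below 0.05, 4 were higher in edgeR, DESeq2 called 0 higher, and the list's median was -0.22. The called genes were *GAD4*, a glutamate decarboxylase gene (33.6 and 35.1 CPM in WT, 9.2 and 12.4 CPM in *val1*, log2 fold change -1.66, adjusted p = 7.57e-05), *AlaAT1*, an alanine aminotransferase gene (437 and 449 CPM, 159 and 190.4 CPM, -1.34, adjusted p = 7.98e-06), and *AOX1A*, the alternative oxidase gene (12.1 and 12.6 CPM, 6.32 and 5.55 CPM, -1.06, adjusted p = 0.000188). In the *val2*-labelled libraries edgeR and DESeq2 called 0 of the 25, with 4 higher and 5 lower at an unadjusted p below 0.05 and a median of 0.0011. There 2.27% of all genes were called lower and 0.918% higher.

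Markers of tissues around the meristem moved as well. The xylem markers *XCP1*, *XCP2*, *IRX3* and *VND7* summed to 126 and 122 CPM in WT, 56.6 and 90.0 CPM in *val1*, and 77.9 and 70.8 CPM in the *val2*-labelled libraries, with 3 of 4 lower in *val1* and 2 of 4 lower in the *val2*-labelled libraries at an adjusted p below 0.05. The leaf mesophyll markers summed to 7989 and 7381 CPM in WT, 9056 and 8745 CPM in *val1*, and 6257 and 6012 CPM in the *val2*-labelled libraries, with 3 of 5 higher in *val1* and 4 of 5 lower in the *val2*-labelled libraries. At an adjusted p below 0.05, 22.1% of all genes were lower and 23.6% higher in *val1*, and 10% were lower in the *val2*-labelled libraries. The part of either tissue in the levels of the hypoxia genes was not tested.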

How the data were processed

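PolyA-enriched RNA from dissected shoot apices was sequenced in 6 libraries (2 each of Col-0, *val1-2* and *val2-1*), prepared with a strand-keeping kit. The authors ran cutadapt on the reads and STAR against TAIR10, and deposited estimated counts per gene made by StringTie from Araport11 models, which hold whole numbers. They also deposited TPM values from StringTie, which held 39 of the 43 members (not *PFK6*, *RAP2.3*, AT4G33560 or AT4G17670). The 77 entries with no gene identifier, at most 0.00266% of a library, were left out. Groups came from the genotype labels.

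Counts were filtered with filterByExpr, scaled by TMM and fitted over all 6 libraries with edgeR 4.0.16 (quasi-likelihood test, R 4.3.3), with Benjamini-Hochberg adjustment over 21140 genes. CPM are TMM-scaled and are compared only within a gene or within a sum over the same genes, and TPM were used between genes. The scripts were tested on simulated data. With 2 replicates and 3 residual degrees of freedom precision is limited, and counting intervals cover counting error only. Alternatives were DESeq2 1.42.0, DESeq2 size factors, library size alone, no filter, a stricter filter (mean of 50 counts or more), a fit of the compared genotypes alone, the replicate block, each library left out, no fold threshold, and limma 3.58.1 on log2(TPM + 1) and log2(TPM + 0.1) for genes with a mean of at least 1 TPM.

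Replicate numbers are shared across genotypes, but same-numbered libraries deviated together only weakly (correlations from 0.0669 to 0.0758, all under 0.1), so the fit has no block. Positions and sequences are from RefSeq on TAIR10.1, where 99.6% of the 24292 genes matched. Library values are given for all fermentation, sugar and oxygen-sensing members, for *HB1*, *ACO1* and *ETR2*, and for each other member called against WT. *SAD6* and AT4G39675 were added after their values were seen. The members and lists were chosen with earlier results of these data known, so no p is given for a list. *WUS* and *EXPA7* were not analysed here. One promoter match is not reported here.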

Additional observations from a re-analysis of the deposited data

How the results depend on the processing

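The direction of the members' median was negative in every comparison under all 15 alternatives. The block on replicate number left 23 members lower in *val1*, 10 in the *val2*-labelled libraries and 12 between the mutants, with medians of -1.14, -0.32 and -0.56; the only call it changed among the named members was that of *ADH1*, at -0.997. With no fold threshold, 3 members were higher in *val1*, 2 higher and 24 lower in the *val2*-labelled libraries, and 4 higher and 27 lower between the mutants. Scaling by library size alone shifted the median of all genes to 0.25 in *val1* and to 0.15 between the mutants. Beside these, the members' medians were -0.91 and -0.42, with 18 members lower in *val1* in place of 24 (*ADH1*, *LDH1*, *HB1*, *ACHT5*, AT4G27450 and AT1G74940 fell short of 2-fold, at -0.79 to -0.9997, all past the adjusted p), 2 higher (*SAD6* and AT4G39675), 8 lower in the *val2*-labelled libraries, and 10 lower and 1 higher (*PCO2*) between the mutants. A mean of at least 50 counts, which leaves 39 members, gave a median of -1.0 in *val1*. On log2(TPM + 1) the *val1* median was -1.01 with 20 of 39 members lower and 1 higher, and 6 members were lower in the *val2*-labelled libraries. On log2(TPM + 0.1) the *val1* median was -1.03 with 21 lower and 2 higher. The cause of these shifts was not tested.

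When libraries were dropped singly, the *val1* comparison had 20 to 24 members lower, 0 to 1 higher (AT4G39675, without the first WT replicate) and medians from -1.26 to -0.95. The *val2*-labelled libraries had 4 to 10 lower, 0 higher and medians from -0.43 to -0.32. Between the mutants 9 to 12 were lower, 0 higher, with medians from -0.57 to -0.51. Leaving out a library leaves its genotype with 1 sample, assumed to vary like the others. Over 664 tests of 45 named values against WT, 41 lost a call, 1 gained one and no called value changed direction. These tests leave out the direct comparison of the mutants, and also *SAD6* and AT4G39675, whose gained calls are given above. Depth limits AT5G10040, AT3G29970 and *NIP2;1* most.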
